A study of Schizosaccharomyces pombe with 88 samples.

Results

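The genes described here are the 117 fission yeast genes whose platform symbol begins with mug, meu or mde followed by a digit. They were chosen by name alone, out of 4928 genes and unnamed probe units measured on the arrays, and comprised 91 mug, 18 meu and 8 mde genes. The names record how the genes were found in earlier screens: mug stands for meiotically upregulated gene, meu for meiotic expression upregulated and mde for Mei4-dependent expression. In fission yeast, nitrogen starvation and mating pheromone lead through the transcription factor Ste11 and the RNA-binding protein Mei2 to meiosis, in which the forkhead factor Mei4 turns on genes of the nuclear divisions and of spore formation. In cells growing by mitosis many such transcripts are kept low, in part because the RNA-binding protein Mmi1 directs a group of them to destruction. The cultures studied here were growing by mitosis, so the values describe genes with these names outside meiosis. Whether each gene acts in meiosis was not tested.

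Total RNA was measured on 88 arrays with 2 colours from cultures of wild type (WT) and of rad3, cds1 and chk1 mutants grown at 30°C. Small early G2 cells were collected by elutriation (0 min) and sampled at 40, 80, 120, 160 and 200 min, either untreated or in 8 mM hydroxyurea (HU), which blocks ribonucleotide reductase and stalls DNA replication. Rad3 is the sensor kinase of the DNA replication and damage checkpoints, Cds1 the effector kinase of the replication branch and Chk1 that of the damage branch. Every value is a log2 ratio of the sample (Cy5) over 1 common reference (Cy3), RNA of untreated asynchronous wild-type cells in mid-log growth. The 44 conditions therefore comprised, in each of the 4 strains, the start, 5 untreated and 5 HU times, each with 2 technical array repeats that were averaged. The labels give the strains by gene name only and name neither alleles nor replicate cultures, so the p-values measure the spread between these samples, and strain cannot be told apart from culture or array batch. In a culture, fewer cells with a transcript and less transcript per cell cannot be told apart either.

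The mutated genes followed the strain labels. On the arrays used, the rad3 probes averaged -2.70 ± 0.48 (SD, 22 arrays) in the rad3 strain and -0.45 ± 0.25 in WT, and the cds1 probes averaged -2.94 ± 0.17 in the cds1 strain and 0.36 ± 0.49 in WT. The chk1 probes lay at -1.19 ± 0.33 (16 arrays) in the chk1 strain and -0.36 ± 0.35 in WT. The 6 chk1 arrays of 120 min and of HU at 200 min were left out: their second repeats correlated at 0.99995 or more, over all probes, with the second WT repeat of the same condition, and their first repeats at 0.926 to 0.976 with the first. WT therefore stands alone at 120 min and for HU at 200 min. The HU effect of WT at these times is a single difference without a replicate. Its standard errors and p-values, and those of the comparisons that use it, draw on the spread at other strains and times. Both chk1 repeats with HU at 160 min held the same values within 0.001 for 80.1% of probes. They are in effect 1 array, although both are among the 16 chk1 arrays above. The repeats of the members spread by a median SD of 0.386 in WT and 0.341 in rad3, against 0.0999 in cds1 and 0.0838 in chk1, so WT and rad3 values carry the larger technical error.

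Each member had 2 probes, and 1 of the 234 probes was dropped for missing values, leaving mde7 on a single probe. Across arrays the paired probes of a member correlated with a median r of 0.533, against 0.657 over all genes. They correlated below 0 in 7 members and above 0.8 in 14. mug57 and mug97 overlap each other on opposite strands, as do mug58 and mug177, so that signals of overlapping partners cannot be told apart.

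The members as a group lay below the reference. In all 41 conditions used, their median log2 ratio was below the median of all genes, ranging from -0.46 at the start of the cds1 culture to -0.07 in cds1 with HU at 160 min, while that of all genes stayed between -0.08 and 0.03. Averaged over conditions, 91 members (77.8%) had a mean below 0, against 50.5% of all genes, and 21 (17.9%) had a mean under -0.5, against 4.83%. The lowest mean belonged to mde7, which encodes an RNA-binding protein, at -1.0. mug8 followed at -0.82, then mug28, an RNA-binding protein needed for the forespore membrane, at -0.77. At the other end, mug143 averaged 0.68, mug35 0.61, mug147 0.49, mug161 0.46 and mde4, a subunit of the monopolin complex at kinetochores, 0.44. These are levels relative to the reference culture and do not rank the genes by transcript number. Whether dim spots moved with the low levels was not tested, because the values hold no spot brightness.

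How the members varied through the untreated time course was asked with a limma fit of strain and time. Of the 117 members, 81 varied with time including the start (background 78.8% of all genes), and 44 varied among the times from 40 min on (background 40.7%). Between 0 and 40 min, 68 members changed (background 67.7%). Of these, 39 rose (background 37.6%) and 29 fell (background 30.1%), and the median change was 0.06 log2 units, against 0.05 for all genes. As shares of 117, all 5 counts lay below their backgrounds.

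The steepest fall was that of mug147, whose levels in the order WT, rad3, cds1 and chk1 were 4.04, 3.75, 3.92 and 4.12 at 0 min and -0.47, 0.63, 0.67 and 0.12 at 40 min. All 4 strains began far above the reference and no strain overlapped between the times. The fitted change was -3.72 ± 0.22 (SE; limma adjusted p = 1.36e-11). mug191 went from 2.83, 3.0, 2.44 and 2.84 in the same strain order to -0.55, 0.09, -0.14 and -1.0, a change of -3.18 ± 0.15 (limma adjusted p = 6.94e-13). mug143 started at 3.02, 2.77, 3.0 and 3.77 and reached -0.17, 0.45, 0.46 and 0.07, a change of -2.94 ± 0.18 (limma adjusted p = 2.09e-11). mug35 started lower, between 1.71 and 2.22, and fell by 2.02 ± 0.22 to between -0.58 and 0.31. A smaller fall, by 1.17 ± 0.15, was seen in mug153, but its probes gave -1.90 and -0.44, so that the fall rests largely on 1 probe. All 9 stress marker genes (hsp9, gpd1, ctt1, ntp1, tps1, gpx1, pyp2, cta3 and zym1, known for their response to heat, salt or oxidants) fell over the same interval, with a median change of -2.58. The part of stress at the start in the 29 falls was not tested.

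Other members were lowest at the start. mde1 lay between -1.43 and -1.15 at 0 min and between 0.04 and 0.28 at 40 min, a rise of 1.45 ± 0.10 (limma adjusted p = 1.88e-10). mug151 rose by 1.25 ± 0.10, and mug165 by 1.22 ± 0.11 from levels of -1.89 to -1.54. mug165 went on upwards after 40 min, to a strain mean of 0.33 ± 0.18 (SD, 4 strains) at 80 min. mug162 rose by 1.10 ± 0.14, mde4 by 0.80 ± 0.10 and mug28 by 0.76 ± 0.28. mug147, mug191, mug143, mug35, mde1 and mug165 each moved the same way in all 4 strains.

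**Figure D1:**
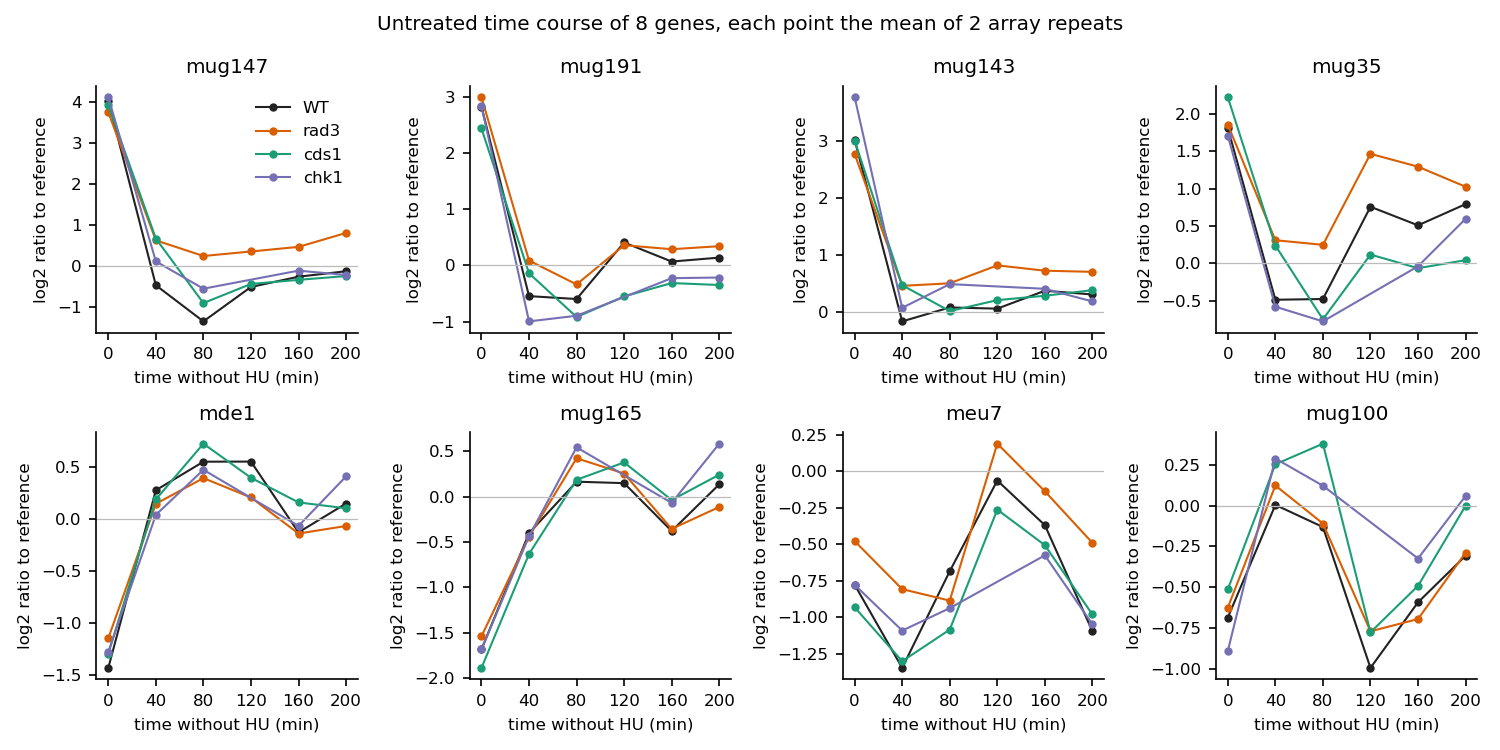
Log2 ratio to the reference against time without HU in min for 8 genes, each line 1 strain and each point the mean of 2 array repeats; vertical scales differ between panels and chk1 has no point at 120 min. mug147, mug191, mug143 and mug35 start high and drop by 40 min, mde1 and mug165 start low, and meu7 is highest at 120 min in the 3 strains measured then, where mug100 is lowest.

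From early G2, fission yeast cells go on through mitosis, septation and the next S phase. mug35 had the widest range among the called members, 1.22 log2 units between its highest and lowest time means. The next was meu7, an alpha-amylase family protein of spore formation. Its strain means ran from -1.14 ± 0.25 (SD, 4 strains) at 40 min through -0.90 ± 0.17 at 80 min to -0.04 ± 0.23 (3 strains) at 120 min, and then to -0.40 ± 0.19 and -0.90 ± 0.28 at 160 and 200 min. The strains did not overlap between 80 and 120 min. mug100 ran the other way, from 0.17 ± 0.13 at 40 min to -0.85 ± 0.13 at 120 min and back to -0.13 ± 0.19 at 200 min. The limma adjusted p was 8.56e-07 for meu7 and 1.46e-06 for mug100. mug124 stood at -0.31 ± 0.19 at 120 min and -0.20 ± 0.11 at 200 min, against -1.20 ± 0.23 at 40 min. mde6, which resembles the animal protein muskelin, was highest at 80 min with 0.18 ± 0.13 and lowest at 160 min with -0.71 ± 0.25. The 44 called members had no common peak, since 12, 11, 6, 6 and 9 of them were highest at the 5 successive times from 40 to 200 min. The corresponding shares were 27.3%, 25%, 13.6%, 13.6% and 20.5%, against 33.1%, 18.6%, 16.7%, 11.1% and 20.6% of all called genes. Without WT the count of 44 dropped to 14, and mug35, mug147, mug184, mug191 and meu15 were among those no longer called.

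Differences between strains without HU were smaller, and a few genes led them. In chk1, 19 members differed from WT (background 16.9%), 15 higher (background 8.32%) and 4 lower (background 8.62%). In cds1, 56 differed (background 40.1%), 39 higher (background 19.9%) and 17 lower (background 20.2%). In rad3, 9 differed (background 9.92%), 8 higher (background 3.41%) and 1 lower (background 6.51%). The member medians were 0.11 in chk1, 0.12 in cds1 and 0.08 in rad3, against 0.00, 0.01 and -0.02 for all genes. The 3 contrasts share the WT arrays, so that a low WT value of the members enters each of them. Each contrast takes the sampled times of a strain as its replicates, so its p-values do not measure the spread between cultures of a strain. These counts rest on single array repeats: with the second repeats alone they were 40, 72 and 72 in chk1, cds1 and rad3, and with the first repeats alone 14, 10 and 24.

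meu27 had its largest difference from WT in chk1. Its untreated levels there were 0.33, 0.90, 0.78, 0.75 and 0.42 at 0, 40, 80, 160 and 200 min. In WT they were -0.62, -0.62, -0.30, -0.36, -0.37 and -0.76 over the 6 times. The strains did not overlap, and the difference was 1.16 ± 0.09 (SE; limma adjusted p = 1.14e-07), with both probes higher (1.44 and 1.01). It was higher in cds1 too, by 0.37 ± 0.08 (limma adjusted p = 0.00256), and by 0.07 ± 0.08 in rad3, which did not pass the test. meu27 is the next protein-coding gene to chk1 on chromosome III. The gene on the other side of chk1, ubc11, differed by -0.04 ± 0.09 (limma adjusted p = 0.790), and ppc1, next beyond meu27, by 0.35 ± 0.09 (limma adjusted p = 0.0132). The part of the altered chk1 locus in the meu27 level was not tested. No member lay within 3 protein-coding genes of rad3 or cds1.

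mug108 had its largest difference from WT in rad3. Its levels from 0 to 200 min were 1.85, 1.05, 0.96, 0.80, 0.50 and 0.51 in rad3 and 0.37, -0.09, -0.11, -0.67, -0.32 and -0.37 in WT. At each time rad3 was the higher, and the difference was 1.14 ± 0.12 (limma adjusted p = 6.90e-06), with 1.23 and 1.14 from its probes. The corresponding differences were 0.21 ± 0.12 in cds1 and 0.31 ± 0.13 in chk1, neither of which passed the test. meu23 had its largest difference in cds1, where it lay between 0.14 and 0.49 at all 6 times, against -0.73 to -0.24 in WT, a difference of 0.76 ± 0.08 (limma adjusted p = 1.04e-06). It was also higher in chk1, by 0.26 ± 0.08 (limma adjusted p = 0.0357), but with the first repeats alone by 0.11 and after quantile normalization by 0.19, and then was not called. In rad3 it differed by 0.05 ± 0.08. Among the genes of known role, mug28 was higher in cds1 by 0.93 ± 0.23 and mde7 by 0.80 ± 0.26. mde3, which encodes an Ime2-like kinase, was higher by 0.66 ± 0.10, but its probes gave 1.23 and 0.09. With the first repeats alone mug28 differed by 0.65 and mde7 by 0.41, and neither was called.

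**Figure D2:**
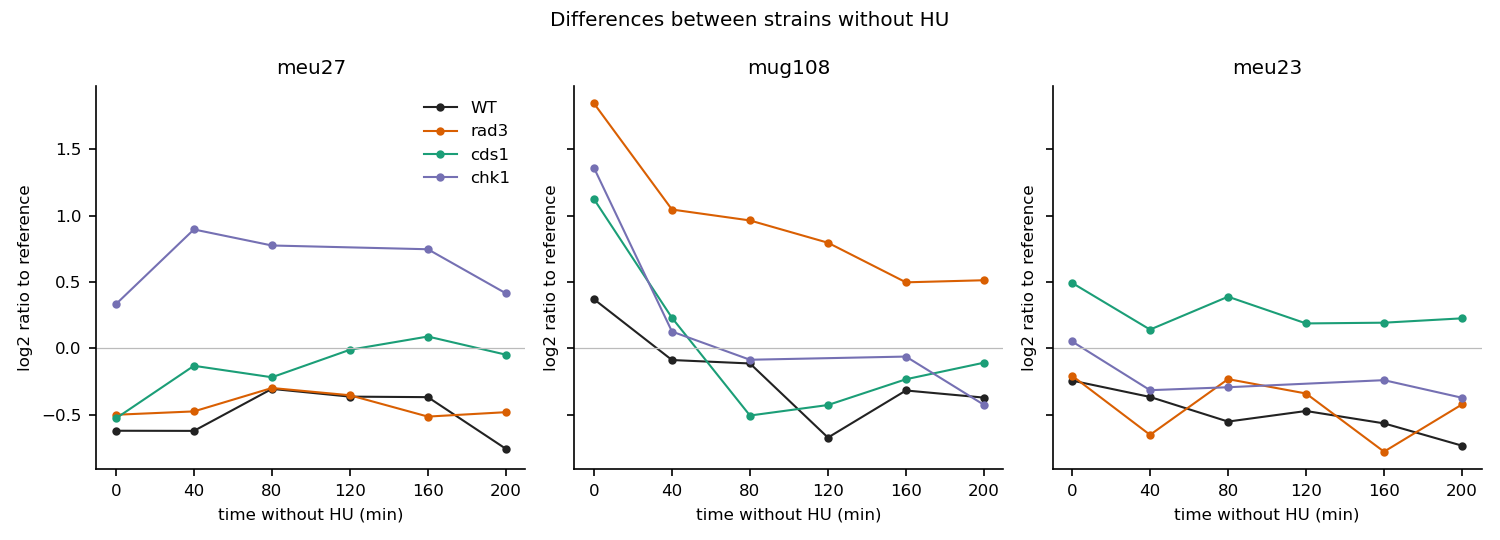
Log2 ratio to the reference against time without HU in min for meu27, mug108 and meu23, each line 1 strain and each point the mean of 2 array repeats. chk1 lies above WT for meu27, rad3 lies above WT for mug108, and cds1 lies above WT for meu23 at each time measured in both strains.

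The effect of HU was the difference between treated and untreated samples of the same strain and time. It was fitted for WT with chk1 and for rad3 with cds1, since Rad3 and Cds1 form the replication checkpoint that HU triggers, and the difference between these pairs was tested in the same fit. The pairs were set up with earlier results of these arrays known. At 40 and 80 min limma called no member in either pair or in their difference (background 0.0% in each). An unadjusted p under 0.05 was found for 9, 16 and 7 members, against 265, 500 and 282 of all 4927 genes tested. The median difference of the members at 40 min was 0.04, -0.17, -0.03 and -0.10 for the strains in the order WT, rad3, cds1, chk1. At 120 min limma called no member in WT (background 0.325%) and none in the difference between the pairs. In rad3 and cds1 mug184 alone was called (background 0.609%), with a rise of 0.54 ± 0.10 (SE, limma adjusted p = 0.018). Without rad3, without cds1 or without the first repeats mug184 was not called.

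**Figure D3:**
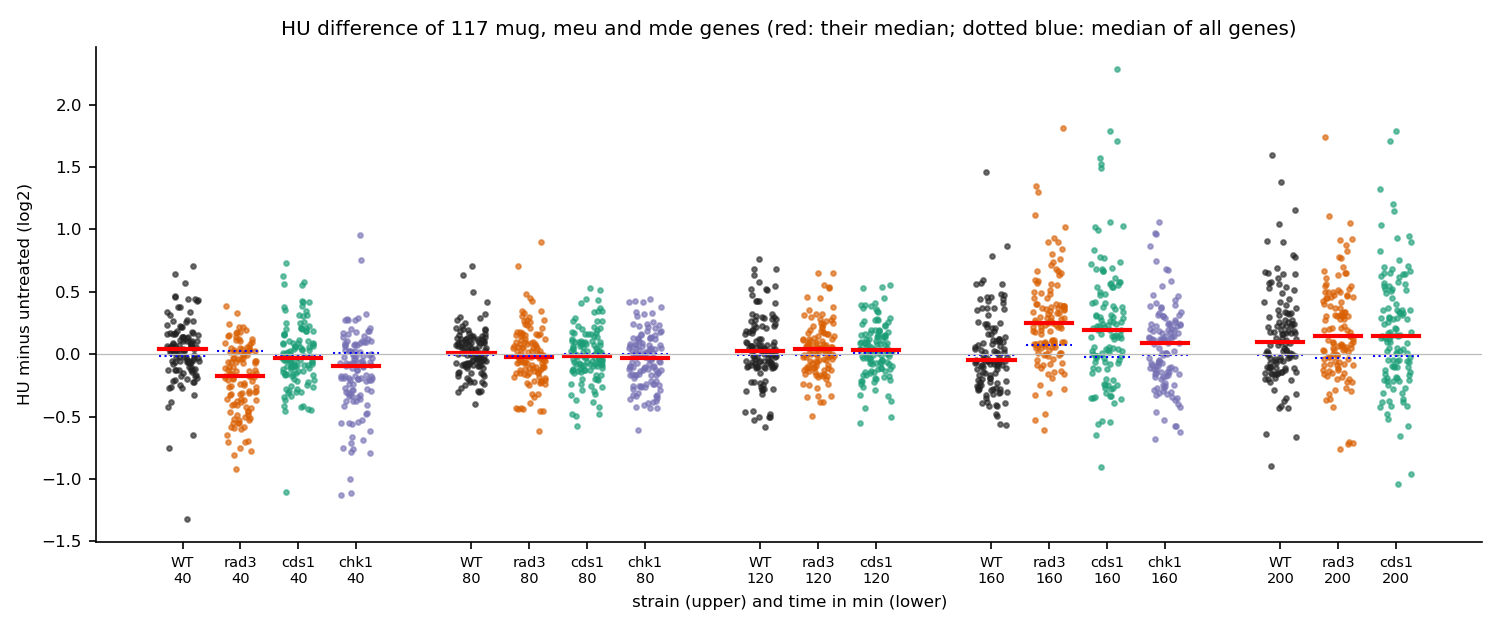
HU minus untreated difference in log2 units (vertical) of each of the 117 members in each strain and time (horizontal); each point is 1 gene, the red bar is the member median and the dotted blue line the median of all genes. The points spread out at 160 and 200 min, where the member medians of rad3 and cds1 lie between 0.15 and 0.25 and those of WT at -0.05 and 0.09.

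At 160 and 200 min HU raised many members in rad3 and cds1. At 160 min, 44 members changed there (background 38.4%), of which 40 rose (background 21.2%) and 4 fell (background 17.2%). The member median was 0.19 log2 units, against 0.02 for all genes, and 90 of 117 members lay above 0, against 52.4% of all genes. In WT and chk1, 12 members changed (background 20.4%), of which 9 rose (background 9.88%) and 3 fell (background 10.5%), with a median of 0.00 against -0.01. At 200 min, 38 changed in rad3 and cds1 (background 35.9%), of which 33 rose (background 17.0%) and 5 fell (background 18.9%), with a median of 0.18 against -0.02 for all genes. In WT alone, 13 changed (background 11.3%), of which 10 rose (background 5.83%) and 3 fell (background 5.52%). 25 members rose at both times in rad3 and cds1. The share of all genes that did so was not computed, so this count cannot be read as a trait of the members. Without cds1, 24 members were called in rad3 at 160 min and 18 at 200 min, in place of 44 and 38, and without chk1 3 were called in WT at 160 min, in place of 12. The difference between the pairs at 160 min was called for 12 members (background 5.01%), and for 6 without WT, 5 without rad3, 1 without cds1 and 4 without chk1. In both pairs the HU comparisons at 160 and 200 min use different arrays but share the residual spread of 1 fit. The labels name no replicate cultures, so the times are not independent replicates of a strain. Each pair difference reuses the arrays of its pairs. The calls in WT at 200 min hold no replication of WT at that time, since the spread behind them comes from other strains and times.

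mug135 had the largest rise. At 160 min the untreated arrays of repeats 1 and 2 read -0.01 and 0.27 in rad3 and -0.02 and -0.10 in cds1, and those with HU 1.75 and 2.14 in rad3 and 2.26 and 2.18 in cds1. In WT they read -0.16 and -0.61 untreated and 0.40 and -0.05 with HU, and in chk1 -0.20 and -0.11 untreated and 0.40 with HU. All HU arrays of rad3 and cds1 thus lay above every other array of 160 min. The fitted effect was 2.05 ± 0.10 in rad3 and cds1 (limma adjusted p = 9.57e-09), with 2.12 and 1.97 from its probes, and 0.55 ± 0.10 in WT and chk1 (limma adjusted p = 0.00102). Without chk1 the WT effect was 0.56 (adjusted p = 0.0551). The pairs differed by 1.49 ± 0.14 (limma adjusted p = 2.77e-05). At 200 min the effect was 1.72 ± 0.10 in rad3 and cds1 and 0.64 ± 0.14 in WT, a difference of 1.08 ± 0.17 (limma adjusted p = 0.00492). After quantile normalization the WT effect was 0.60 (adjusted p = 0.123) and the difference 0.47 (adjusted p = 0.481), and with the second repeats alone the difference was 0.77 (adjusted p = 0.140).

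meu14 encodes a protein of the leading edge of the forespore membrane, the membrane that grows around each meiotic nucleus. In the order WT, rad3, cds1 and chk1, its untreated levels at 160 min were -0.81, -0.68, -0.44 and 0.09, and its levels with HU -0.56, 0.44, 1.27 and -0.22. Only rad3 and cds1 with HU stood above 0.09, and cds1 stood above rad3. The fitted effect was 1.41 ± 0.19 in rad3 and cds1 and -0.03 ± 0.19 in WT and chk1, a difference of 1.44 ± 0.27 (limma adjusted p = 0.00687). Without cds1 the difference was 1.14 (adjusted p = 0.066), without chk1 1.16 (0.125) and with the second repeats alone 1.31 (0.098). At 200 min meu14 reached 1.25 in cds1 with HU against -0.08 untreated, and 0.16 against -0.34 in rad3. The pair effect then was 0.91 ± 0.19, not distinguishable from the 0.57 ± 0.27 in WT (difference 0.35 ± 0.33, limma adjusted p = 0.651). The pair effect was 0.50 without cds1 and 0.75 with the second repeats alone, and neither was called.

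mug24 encodes an RNA-binding protein. It stood at -0.81 in rad3 and -0.52 in cds1 at 160 min without HU and at 0.49 and 1.06 with HU, while WT went from -0.89 to -0.32 and chk1 from -0.18 to 0.12. The pair effects were 1.44 ± 0.17 and 0.44 ± 0.17, a difference of 1.00 ± 0.24 (limma adjusted p = 0.0239). Without WT, without cds1, without chk1, with the second repeats alone and after quantile normalization the difference was 0.86 to 1.13 and was not called. mug94 went from -0.31 to 0.45 in rad3 and from -0.52 to 0.50 in cds1, while WT moved from -0.57 to -0.47 and chk1 from -0.79 to -0.86. Its difference of 0.88 ± 0.14 (limma adjusted p = 0.00254) was 0.75 and 0.79 without cds1 and without chk1 and then missed the threshold.

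In all, the pair difference was called for 12 members at 160 min (background 5.01%), each larger in rad3 and cds1 (background 2.9%), and for none in the opposite direction (background 2.11%). Besides mug135, meu14, mug24 and mug94 these were mug106 (0.93 ± 0.20), meu27 (0.89 ± 0.19), mug51 (0.72 ± 0.18), meu25 (0.68 ± 0.19), mug122 (0.67 ± 0.15), mug170 (0.61 ± 0.16), mug30 (0.54 ± 0.14) and mug184 (0.51 ± 0.14), of which the last 4 were named after their values were seen. The probes of meu25 correlated at only 0.12 across arrays. They gave 0.63 and -0.09 in rad3 and cds1, and 0.40 and -0.68 in WT and chk1. In each fit without 1 strain or 1 repeat the count was between 1 and 6, and mug135 was the member called in every such fit that could be made. meu27 reached its difference through a fall in WT and chk1 (-0.55 ± 0.13) with 0.34 ± 0.13 in rad3 and cds1, which missed the threshold. Without chk1 the WT effect was -0.42 and was not called. At 200 min meu27 rose in both, by 1.16 ± 0.19 in WT and by 0.91 ± 0.13 in rad3 and cds1. At 200 min 3 members differed between the pairs (background 1.52%), again upwards in rad3 and cds1 (background 0.589%), and none downwards (background 0.934%). They were mug135, mug168 (0.90 ± 0.20) and mug122 (0.88 ± 0.19), the last with a fall in WT (-0.66 ± 0.15) that was -0.59 and not called with the first repeats alone. The differences of mug168 and mug122 were not called with either repeat alone, after quantile normalization or without chk1. That of mug168 was also lost without cds1, and that of mug122 without rad3.

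**Figure D4:**
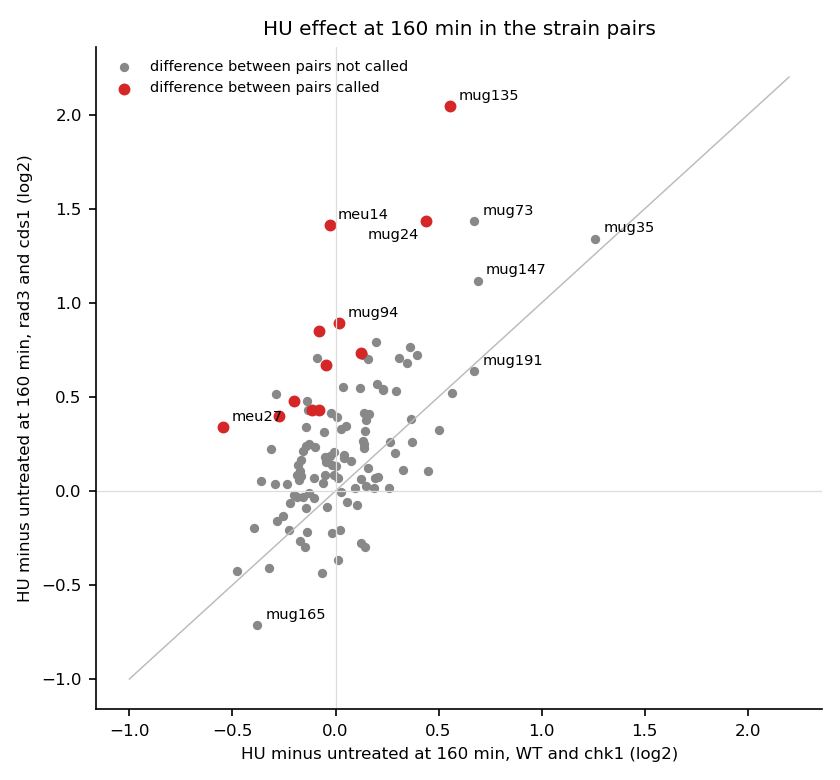
HU effect at 160 min in WT and chk1 (horizontal, log2) against that in rad3 and cds1 (vertical, log2) for the 117 members; red points are the 12 genes whose difference between the pairs was called, and the diagonal marks equal effects. mug135, meu14 and mug24 lie far above the diagonal, and mug35 and mug191 lie close to it.

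In both pairs 5 members rose with HU at 160 and at 200 min, namely mug135, mug35, mug147, mug191 and mug73. The share of all genes with such rises was not computed, so this count cannot be read as a trait of the members. At 160 min mug35 went from 0.51 to 1.97 in WT, from 1.29 to 2.19 in rad3, from -0.06 to 1.72 in cds1 and from -0.04 to 1.02 in chk1. Each strain rose, and the effects of 1.26 ± 0.19 in WT and chk1 and 1.34 ± 0.19 in rad3 and cds1 differed by 0.08 ± 0.27 (limma adjusted p = 0.896). mug191 rose by 0.67 ± 0.09 and 0.64 ± 0.09 in those pairs, and mug147 by 0.69 ± 0.19 and 1.12 ± 0.19. mug73 rose by 0.67 ± 0.15 and 1.43 ± 0.15, a difference of 0.76 ± 0.21 that missed the threshold (limma adjusted p = 0.0532). At 200 min the effects in WT were 1.38 ± 0.27 for mug35, 1.60 ± 0.26 for mug147, 0.78 ± 0.13 for mug191 and 0.91 ± 0.21 for mug73. After quantile normalization they were 0.55 for mug35, 1.34 for mug147 and 0.65 for mug191 and were not called, as for mug135. With the second repeats alone the mug73 effect in WT was 0.99 and missed the threshold. At 160 min in WT and chk1 the mug73 call was lost without chk1 (0.37) and with the second repeats alone (0.65). That of mug147 was lost without chk1 (0.79), without WT (0.59), with the second repeats alone (0.73) and after quantile normalization (0.77). In rad3 and cds1, quantile normalization ended the calls of mug35 at 160 min (0.84) and of mug147 at 200 min (0.60), and without cds1 mug147 at 200 min gave 0.65 and was not called. In the HU samples of 160 and 200 min mug147 reached at most 1.47 and mug191 at most 1.39, below the 0 min level of every strain. mug35 stood at 2.17 in WT with HU at 200 min, against 1.81 in WT at 0 min.

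**Figure D5:**
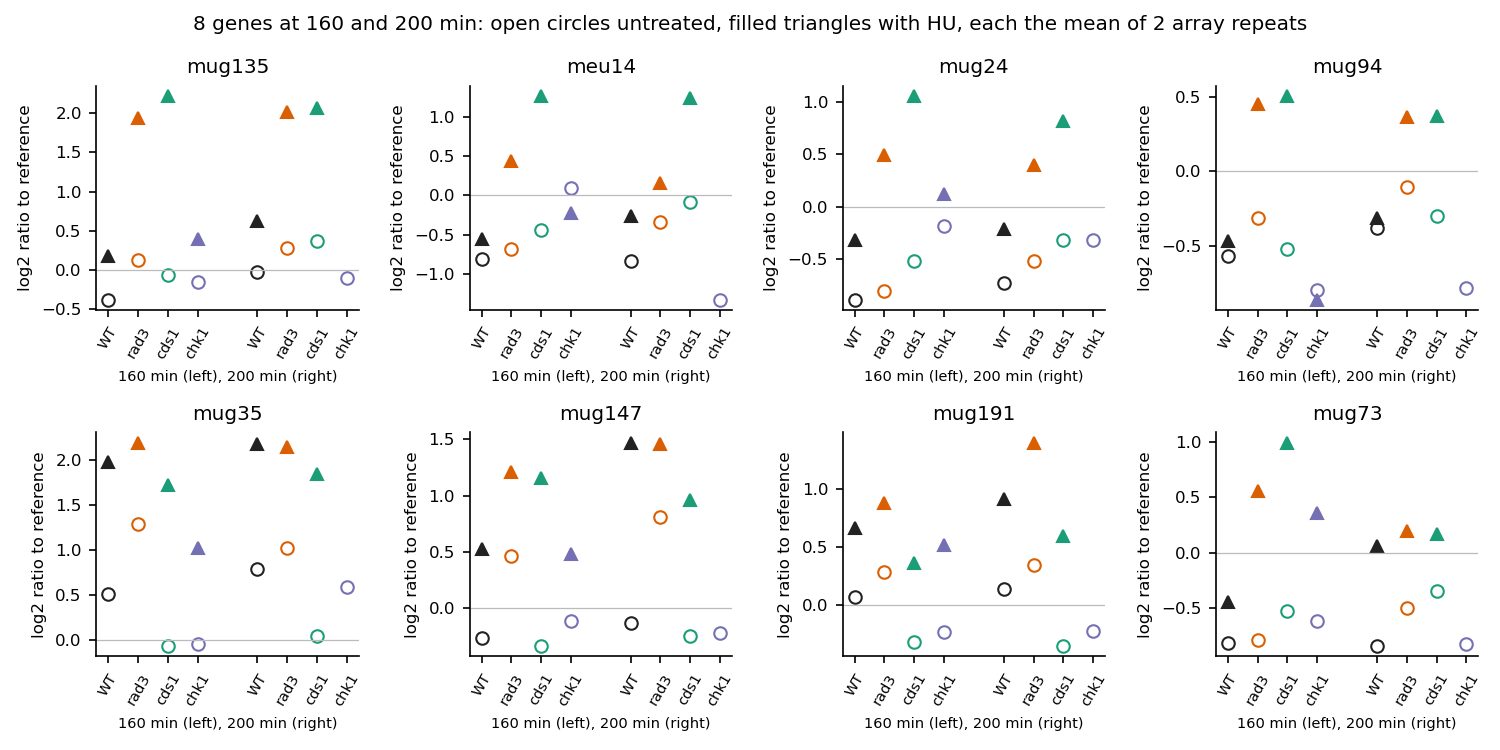
Log2 ratio to the reference (vertical) of 8 genes in each strain at 160 min (left of each panel) and 200 min (right); open circles are untreated and filled triangles HU samples, each the mean of 2 array repeats, and chk1 with HU at 200 min is left out. Triangles of rad3 and cds1 stand well above their circles for mug135, meu14, mug24 and mug94, whereas for mug35, mug147 and mug191 the triangles stand above the circles in every strain.

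Falls with HU were fewer. mug165 read -0.36 and -0.04 in rad3 and cds1 at 160 min untreated and -0.88 and -0.94 with HU, an effect of -0.71 ± 0.14 (limma adjusted p = 0.00118). At 200 min it fell by 0.70 ± 0.14 in rad3 and cds1 and by 0.89 ± 0.20 in WT, where it was not called after quantile normalization (-0.86). Without cds1 its effect in rad3 was -0.53 at 160 min and -0.36 at 200 min and was not called. mug162 fell by 0.84 ± 0.15 in rad3 and cds1 at 200 min. mug165 and mug162 are also among the genes that rose most from 0 to 40 min. meu13, whose product pairs homologous chromosomes in meiosis, fell by 0.40 ± 0.11 in rad3 and cds1 at 200 min, where mug113 and mug84 fell too. Without rad3, without cds1, with either repeat alone and after quantile normalization meu13 gave -0.45 to -0.29 and was not called. mug113, at -0.37, lost its call in 7 of 12 alternatives, in which it gave -0.43 to -0.20. mug84, at -0.30, lost it with the first repeats alone (-0.25), after quantile normalization (-0.27) and without cds1 (-0.18). mug65, mug115 and mug84 fell at 160 min by 0.44 ± 0.10, 0.41 ± 0.10 and 0.28 ± 0.09. mug65 was not called without rad3 (-0.39) or without cds1 (-0.48), and mug115 not without cds1 (-0.28). mug84 was not called in 5 of 12 alternatives, namely either repeat alone, quantile normalization, without rad3 and without cds1, in which it gave -0.36 to -0.19.

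The start and the HU effects use different arrays at 0 and 40 min and at 160 min, so the classes can be crossed. Of the 29 members that fell from 0 to 40 min, 16 (55.2%) rose with HU at 160 min in rad3 and cds1, which is 40.0% of the 40 that rose, against 50.9% over all genes. Of the 39 that rose from 0 to 40 min, 8 (20.5%) rose with HU, and of the 49 not called 16 (32.7%) did. The same shares over all genes were 35.8%, 9.83% and 20.8%, so the order of the classes was that of the whole array. Of the 9 stress markers, 8 rose with HU at 160 min in rad3 and cds1, with a median of 1.28, against 3 and 0.21 in WT and chk1. At 200 min 9 rose in rad3 and cds1 and 6 in WT. Their medians then were 1.15 and 0.87, against member medians of 0.18 and 0.09. Of 7 cell cycle genes (hta1, cdc22, cdc18, cig2, plo1, slp1 and eng1), 4 rose in WT and chk1 at 160 min and 1 in rad3 and cds1, and 4 differed between the pairs, each lower in rad3 and cds1. The part of stress genes and of cell cycle position in the members' HU effects was not tested.

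Taken without a threshold, 21 members (17.9%) had all 4 late HU differences of rad3 and cds1 above all 3 of WT and chk1, against 9.96% of all genes. The opposite order held for 4 members (3.42%), against 8.16%. All 4 differences of rad3 and cds1 were above 0 for 50 members (42.7%, against 27.5% of all genes) and below 0 for 11 (9.40%, against 26.9%). In WT and chk1, 24 members (20.5%) had all 3 differences above 0, against 25.4%, and 22 (18.8%) had all 3 below 0, against 28.3%.

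Among the members of known function, calls differed from gene to gene. Their roles were assigned after the values were seen. Among genes of meiotic chromosomes, mde2, which is needed for meiotic DNA double-strand breaks, was called in none of the 18 comparisons. mug20, a linear element protein, was called only in the time course including the start and in the 0 to 40 min change. mde4 rose from 0 to 40 min, as given above, and with HU at 200 min in rad3 and cds1, by 0.43 ± 0.15. The latter was 0.21 in rad3 and 0.64 in cds1, and neither strain alone, either repeat alone or quantile normalization (0.23) gave a call. Of the kinases, mug27, a regulator of forespore membrane growth, was called nowhere. mug28 rose with HU at 200 min in WT by 1.05 ± 0.32, and its WT levels then were -0.59 with HU and -1.64 untreated. With the second repeats alone this rise was 0.67 and was not called, nor was it called without chk1 or in the trended robust fit.

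Among genes of the spore envelope, meu14 rose as described, and mde10, a metalloprotease of the ADAM family, rose at 200 min in rad3 and cds1 by 0.50 ± 0.12, but gave 0.45 without cds1 and 0.55 without rad3, neither of them called. meu10, a spore wall glycoprotein, was not called in any HU comparison, although its difference was 0.90 ± 0.31 in WT at 200 min. Of the carbohydrate enzymes, meu7 rose by 0.67 ± 0.14 and meu17, a glucosidase family protein, by 0.63 ± 0.22 at 200 min in rad3 and cds1, while mde5, an alpha-amylase family protein, was called nowhere. meu22, an amino acid permease family protein, rose there at 160 min by 0.72 ± 0.20 and at 200 min by 0.60 ± 0.20, but its probes gave 1.16 and 0.28 at 160 min and 1.18 and 0.03 at 200 min, so that the rise rests largely on 1 probe. The probes of meu17 gave 0.90 and 0.36. mug30, a ubiquitin ligase of the HECT family, rose at 160 min by 0.43 ± 0.10. In all, 10 members were called in no comparison, namely mde2, mde5, meu32, mug10, mug27, mug62, mug116, mug131, mug133 and mug166, and 57 were called in no HU comparison within a pair. The matching shares of all genes were not computed, so neither count can be read as a trait of the members.

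Other genes of mating, meiosis and sporulation differed in their calls from list to list. Of 12 measured regulators of meiotic entry, 3 rose and 3 fell with HU at 160 min in rad3 and cds1, with a median of 0.01. ste11 was among those that fell, by 0.72 ± 0.14. It fell in WT and chk1 too, by 0.54 ± 0.14, and mmi1 fell by 0.33 ± 0.10 in rad3 and cds1, while atf31 and rsv2, transcription factor genes, rose by 0.92 ± 0.14 and 1.15 ± 0.24. None of the 5 measured transcripts known to be eliminated through Mmi1 (mei4, rec8, ssm4, spo5 and crs1) was called by limma with HU at 160 or 200 min in either pair. Unadjusted, none passed 0.05 at 160 min, 2 did in WT at 200 min and 1 in rad3 and cds1. Of 14 meiotic recombination genes, only rec15, needed for meiotic DNA breaks, rose at 160 min in rad3 and cds1, by 0.35 ± 0.13, and it rose by 0.72 ± 0.13 in WT and chk1. At 200 min in WT, hop1, a meiotic chromosome axis gene, rose by 1.24 ± 0.23.

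Of 15 spore formation genes, 3 rose and 1 fell at 160 min in rad3 and cds1. They were mok12, an alpha-glucan synthase gene, by 0.87 ± 0.12, spo3, a forespore membrane gene, by 0.65 ± 0.12, and cda1, a chitin deacetylase gene, by 0.52 ± 0.12. The glucan synthase gene bgs2 fell by 0.39 ± 0.14. Of 18 pheromone and mating genes, 8 rose and 3 fell there, with a median of 0.37, and 5 rose and none fell in WT and chk1. The largest of these was the rise of ste6, a Ras activator, by 2.83 ± 0.26 in WT and chk1. fus1, needed for cell fusion, rose by 0.93 ± 0.17 and byr2, a kinase of the pheromone cascade, by 0.91 ± 0.15 in rad3 and cds1. The lists are read against the backgrounds given above for the same comparisons, and the members' own counts of 40 risen and 4 fallen of 117 stand beside them.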

How the data were processed

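RNA of 88 samples was measured on arrays with 2 colours. The deposited values are log2 ratios of sample over common reference, per the labels' dyes: 99.678% of them equal the log2 of a ratio with 3 decimals (tolerance 1e-05 on the ratio). How the authors corrected background, normalized the arrays and filtered spots is not given in the sources used here. Of 9858 probes, 9632 had 1 platform gene symbol, 44 several and 182 none; 9582 were updated by gene ID to the ASM294v3 names. Probes with values on fewer than 80% of arrays (35) were left out, and probes and array repeats were averaged. Precision is limited by the number of arrays and by the lack of replicate cultures in the labels.

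limma 3.58.1 in R 4.3.3 (lmFit, eBayes) was fitted to all 4928 units, on 23 untreated conditions (strain and time, 14 residual degrees of freedom) and on 18 HU minus untreated differences (strain pair and time, 8). A member is called at a Benjamini-Hochberg adjusted p under 0.05 over all genes tested. The fits were tested on simulated data. The repeat numbers mark technical repeats, per the series text. Named members are up to 8 called in each direction per comparison, 12 by range over time, 8 by early change, and 13 fixed by name. The members, lists and pairs were chosen with earlier results of these data known. Alternatives were each repeat alone, arrays as samples, quantile normalization, median centring, a trended robust fit, no filter, the chk1 arrays put back, and each strain left out.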

Additional observations from a re-analysis of the deposited data

Results flagged for a closer look

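Differences between the strain pairs in the HU effect passed the limma test for 11 named results. At 160 min the effect in rad3 and cds1 exceeded that in WT and chk1 by 1.49 for mug135, 1.44 for meu14, 1.00 for mug24, 0.93 for mug106, 0.89 for meu27, 0.88 for mug94, 0.72 for mug51 and 0.68 for meu25, all on the log2 scale. At 200 min it exceeded that in WT by 1.08 for mug135, 0.90 for mug168 and 0.88 for mug122. Each condition has 2 arrays, so single arrays were not examined as outliers.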

How the results depend on the processing

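With 2 technical array repeats per condition and strains standing in for replicates, precision is limited by the lack of replicate cultures in the labels. Without spot brightness no limit could be set by signal over background. With every array as a sample and the repeat number as a replicate block, more members were called: 23 for rad3 minus WT, 30 for chk1 minus WT, 8 and 4 for HU at 120 min in WT and in rad3 and cds1, 24 and 30 at 160 min for WT and chk1 and for the pair difference, and 28 and 13 at 200 min. The repeats are technical, so this block fit counts each culture more than once. Quantile normalization gave 11 for chk1 minus WT, 4 for the pair difference at 160 min, and 6 and 0 for WT and the pair difference at 200 min. Putting the left-out chk1 arrays back, whose second repeats match WT arrays, gave 8 for chk1 minus WT, 14 and 1 at 120 min for WT and chk1 and the pair difference, and 41 and 22 at 200 min. Leaving out 1 repeat or 1 strain at a time, the counts ran from 14 to 34 after 40 min, from 9 to 72 for rad3 minus WT, from 10 to 72 for cds1 minus WT and from 14 to 40 for chk1 minus WT. For HU they ran from 0 to 1 in each pair at 120 min, from 3 to 15 in WT and chk1, from 24 to 49 in rad3 and cds1 and from 1 to 6 for their difference at 160 min. At 200 min they ran from 18 to 37 in rad3 and cds1 and from 0 to 3 for the difference. Some directions turned. With the first and the second repeats alone, mde3 changed from 0 to 40 min by -0.0011 and 0.75. In rad3 minus WT the same fits gave -0.017 and 0.62 for meu18, 0.13 and -0.74 for mug126 and 0.38 and -0.55 for mde10, and in cds1 minus WT 0.36 and -0.39 for mde10. For HU, mde7 in WT and chk1 at 160 min gave -0.58 without WT and 0.87 without chk1, and meu29 in rad3 and cds1 at 200 min gave 0.48 without cds1 and -0.66 without rad3. The causes were not tested. Median centring, the trended robust fit and the unfiltered table moved no count of members by over 1.5 times. For named genes, 3205 recomputed values kept their side of the threshold, 69 passed it and 210 lost the call. A further 7 turned in direction with a call in at least 1 of the fits compared. Turns between values that were not called are counted among the 3205, and the time course tests have no direction. mug135 could not be fitted with the first repeats alone in some HU comparisons, where a value is missing.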
